A study of Rattus norvegicus with 65 samples.

Results

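Expression of 10 genes of bile acid synthesis and uptake was followed in the livers of 65 male Sprague-Dawley rats, 6 weeks old, with 1 Affymetrix array per rat. The genes are Cyp7a1, Cyp8b1, Cyp27a1, Cyp7b1, Akr1d1, Baat, Slc10a1, Slco1a1, Slco1b2 and Nr0b2, out of 14217 genes named on the array, and they were taken as every probe set annotated to that symbol alone. This gave 12 probe sets, since Slco1b2 and Akr1d1 have 2 each, and counts of genes use the brighter one of each pair. The rats fall into 22 groups in 3 sets. The genotoxic set holds a control group and the compounds 2-AAF (AAF below), 3MeDAB (MeDAB) and DEN. The nongenotoxic set holds its own control group and 1,4-Dioxane (Dioxane), Clofibrate and DL-Ethionine (Ethionine). The test set holds DCP, ME, SN and Urethane and no control group. Every compound was given for a short and for a long duration to 3 rats each, except DEN short with 2. Short and long are labelled 3 h and 72 h, but the treatment protocol has repeated doses followed by autopsy 24 h later, so only the words are used. The control groups carry no time, and what they were given was not used here. The rats had a 12 h light and 12 h dark cycle with free access to food and water.

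Bile acids are made from cholesterol in hepatocytes and carry cholesterol out of the body. In the classic route Cyp7a1 takes the first and rate-limiting step and Cyp8b1 adds the hydroxyl group that makes cholic acid, while Cyp27a1 and Cyp7b1 serve the acidic route and Akr1d1 reduces the steroid ring for both. Baat joins the finished acid to taurine or glycine. Bile acids that return in portal blood are taken up mainly by Slc10a1, the sodium-dependent transporter NTCP, and also by the organic anion transporters Slco1a1 and Slco1b2. Nr0b2 (SHP) is a corepressor that is induced by the bile acid receptor FXR and represses Cyp7a1. In rodents Cyp7a1 transcription follows a daily rhythm.

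Levels are log2 signals, a difference of 1 being a doubling, and were compared only within a set, because the value ranges of the 3 sets differ. Differences carry the SE of the limma fit, and p was adjusted by Benjamini-Hochberg over all genes tested in that comparison, so that a gene is said to rise or fall at an adjusted p under 0.05, two-sided. Of the 10 genes, 9 passed the filter on low signals and were tested. Cyp7b1 stayed below it in every group, with group means from 3.19 in SN short to 5.04 in DEN long, and is given no test. The rats of a group are labelled as biological replicates and are named here by their replicate number. All rats of a group correlated with one another at 0.983 or more over the probe sets. The hepatocyte markers were high throughout, with group means of their average level from 13.04 in MeDAB long to 13.60 in Ethionine short.

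Rat 1 of each control group stood apart from the other 2 in genes of the daily clock. A clock score was taken as the average of 4 clock genes (Cry1, Clock, Npas2, Bmal1) less the average of 5 genes of the opposite phase (Tef, Per3, Nr1d2, Nr1d1, Dbp), centred in each set. It was -2.22 in rat 1 of the genotoxic control against 1.06 and 1.04 in rats 2 and 3. In the nongenotoxic control it was -1.18 in rat 1 against 1.15 and 1.02. The treated nongenotoxic groups also differed in it, with group means from -2.04 to -1.61 at the short and from 1.29 to 1.92 at the long duration. Results against a control are therefore also given without its rat 1.

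Promoter windows of 250 bases before to 50 after the gene start were given for 7 of the 10 genes. Shown are 3 of those whose signal fell together after the long treatments described below, with the match to a hepatocyte factor motif in capitals (RefSeq, GRCr8, 5′ to 3′ on the gene's strand): Slc10a1 at chr6:106357895-106358194 on the minus strand, Slco1b2 at chr4:176282334-176282633 on the plus strand and Baat at chr5:68656088-68656387 on the minus strand.
Slc10a1: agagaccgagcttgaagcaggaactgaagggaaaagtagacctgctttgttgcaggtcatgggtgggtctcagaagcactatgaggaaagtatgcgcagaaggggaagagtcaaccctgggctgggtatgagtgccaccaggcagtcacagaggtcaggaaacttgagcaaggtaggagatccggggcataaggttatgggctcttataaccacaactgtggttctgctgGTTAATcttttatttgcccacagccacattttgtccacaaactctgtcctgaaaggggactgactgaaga
Slco1b2: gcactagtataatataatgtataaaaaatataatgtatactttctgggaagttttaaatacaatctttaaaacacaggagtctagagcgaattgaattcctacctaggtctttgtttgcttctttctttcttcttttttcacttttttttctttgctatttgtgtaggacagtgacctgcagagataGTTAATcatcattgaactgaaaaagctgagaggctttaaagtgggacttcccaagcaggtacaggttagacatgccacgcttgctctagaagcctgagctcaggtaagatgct
Baat: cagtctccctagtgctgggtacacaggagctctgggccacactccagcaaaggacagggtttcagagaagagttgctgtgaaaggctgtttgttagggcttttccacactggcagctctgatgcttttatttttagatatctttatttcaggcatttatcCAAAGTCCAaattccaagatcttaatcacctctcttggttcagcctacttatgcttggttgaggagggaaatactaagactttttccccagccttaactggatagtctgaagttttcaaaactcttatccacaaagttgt
The capitals mark GTTAAT, an HNF1 half-site, at -20 in Slc10a1 and at -63 in Slco1b2, and CAAAGTCCA, an HNF4 type site, at -90 in Baat. Of 33469 windows of the same length, 7.45% hold GTTAAT and 0.391% hold CAAAGTCCA on either strand. An LRH-1 type half-site, AAGGTCA (in 4.61% of windows), lay on the other strand at -236 in Cyp27a1. A D-box, TTATGNAA (in 3.66%), lay on the other strand at -27 in Slco1a1. None of the 4 motifs was found in the windows of Cyp8b1 and Nr0b2, and no window of the 7 held 2 of these matches. A match is a description of letters and not a bound site.

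Against their controls, the 9 tested genes rose in 3 and fell in 16 of 108 tests. All 16 falls were after long treatment, 7 with MeDAB, 6 with Ethionine and 3 with AAF. All 3 rises were of Cyp7a1 in the nongenotoxic set. Akr1d1 passed the test in none of the 12 comparisons, with differences from -0.10 to 0.33. The 2 probe sets of Slco1b2 did not always give the same call. In all 44 comparisons of the study, both were called in 8, the brighter alone in 2 and the other alone in 7, so calls of the other probe set are given beside each count.

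**Figure D1:**
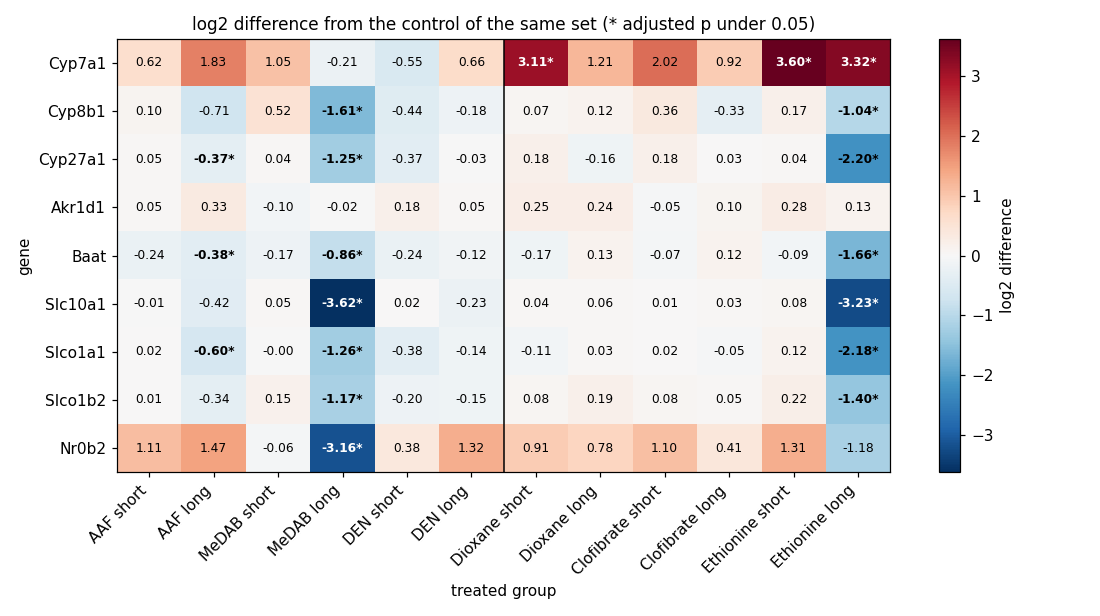
log2 difference of each of the 9 tested genes (rows) from the control of the same set in the 12 treated training groups (columns), blue for lower and red for higher; an asterisk marks an adjusted p under 0.05. MeDAB long and Ethionine long hold 13 of the 16 falls, and Slc10a1 has the lowest value in both columns.

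The question in each long group was which steps moved with the compound. With MeDAB long, 7 of the 9 fell, where 17.7% of all genes tested did. Their median difference was -1.25, against 0.12 over all genes. The uptake transporter Slc10a1 fell most. Its level was 11.23, 9.18 and 8.52 in the 3 MeDAB long rats and 13.20, 13.30 and 13.29 in the controls. The groups did not overlap, and rats 2 and 3 lay far below rat 1. The difference was -3.62 ± 0.33, a 12.3-fold lower signal (adjusted p = 1.98e-10). Slco1a1 was at 9.80, 9.62 and 9.37 against 10.89, 10.96 and 10.70 in the controls, a difference of -1.26 ± 0.13 (adjusted p = 3.68e-09). Slco1b2 was at 11.97, 11.39 and 11.47 against 12.82, 12.79 and 12.71, a difference of -1.17 ± 0.16 (adjusted p = 2.78e-07), and its other probe set gave -1.58. All 3 uptake transporters were thus lower in every treated rat than in any control. The share of all genes without overlap is not given, so a lack of overlap here and below only describes these rats.

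Among the synthesis enzymes, Cyp8b1 was at 11.06, 9.73 and 10.07 with MeDAB long against 12.45, 11.68 and 11.56 in the controls. It fell by 1.61 ± 0.31 (adjusted p = 5.57e-05). Cyp27a1, the sterol 27-hydroxylase, was at 11.23, 10.58 and 10.66 against 12.13, 11.97 and 12.13, a difference of -1.25 ± 0.14 (adjusted p = 9.63e-09). The conjugating enzyme Baat was at 12.89, 12.28 and 12.30 against 13.39, 13.32 and 13.33, a difference of -0.86 ± 0.11 (adjusted p = 7.36e-08). None of these 3 overlapped its control, and in each rat 1 was the least low. The rate-limiting Cyp7a1 did not pass the test, at 10.58, 9.11 and 8.60 inside the wide control range (12.62, 7.96 and 8.32) and with a difference of -0.21 ± 0.94. Akr1d1 differed by -0.02.

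Nr0b2, the corepressor, was at 6.61, 4.81 and 4.99 with MeDAB long, the lowest group mean (5.47) of the genotoxic set. The controls were at 10.15, 7.80 and 7.92, so the groups did not overlap although control rat 1 stood above the other 2. The difference was -3.16 ± 0.70 (adjusted p = 0.000339), and -2.39 without control rat 1 (adjusted p = 0.00773). Rats 2 and 3 of MeDAB long lay under the filter level of 6.03, where the size of a difference is uncertain. With every level under 6.03 raised to it, an alternative added after seeing the data, the difference was -2.40 (adjusted p = 0.00425). Without that rat the same 7 genes passed.

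**Figure D2:**
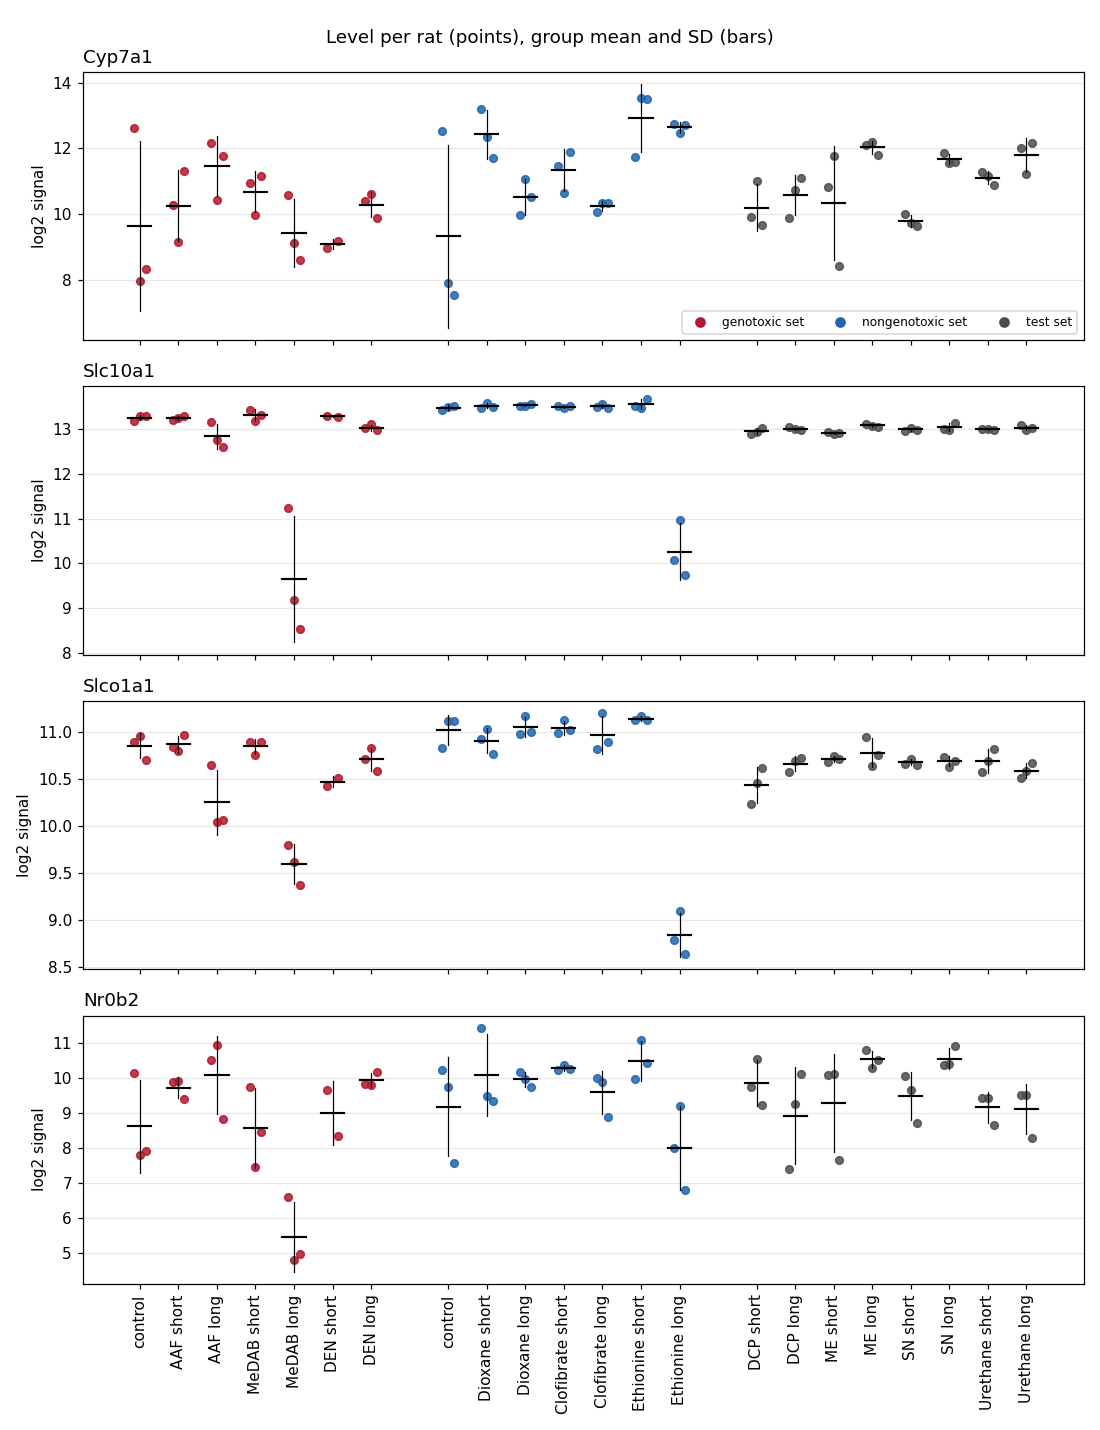
log2 signal of Cyp7a1, Slc10a1, Slco1a1 and Nr0b2 in every rat (points, coloured by set) of the 22 groups, with the group mean (horizontal bar) and SD (vertical bar). Slc10a1 lies between 12.61 and 13.69 outside MeDAB long and Ethionine long, and in each control group Cyp7a1 has 1 rat above 12 and 2 rats below 9.

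With Ethionine long, 6 genes fell, where 23.0% of all genes did, and Cyp7a1 rose, as did 30.0% of all genes. The 6 were all among the 7 that fell with MeDAB long. The median of the 9 was -1.40, against 0.03 over all genes. Slc10a1 again fell most, at 10.06, 10.97 and 9.75 against 13.43, 13.50 and 13.53 in the controls. The difference was -3.23 ± 0.33 or 9.36-fold (adjusted p = 1.31e-09), with no overlap. Slco1a1 was at 8.78, 9.10 and 8.64 against 10.83, 11.11 and 11.11, the lowest group of its set. It fell by 2.18 ± 0.13 (adjusted p = 1.13e-14). Slco1b2 was at 11.61, 12.00 and 11.11 against 13.02, 12.99 and 12.91, a difference of -1.40 ± 0.16 (adjusted p = 7.45e-09). Its other probe set gave a larger difference, -2.57.

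Cyp27a1 was at 10.18, 10.11 and 10.22 with Ethionine long and at 12.44, 12.34 and 12.32 in the controls, a tight and separate group. The difference was -2.20 ± 0.14 (adjusted p = 2.93e-14). Baat was at 11.71, 11.81 and 11.91 against 13.51, 13.50 and 13.40, a difference of -1.66 ± 0.11 (adjusted p = 3.69e-14). Cyp8b1 was at 11.44, 11.30 and 10.70 against 12.55, 11.86 and 12.18, a smaller difference of -1.04 ± 0.31 (adjusted p = 0.00504). Nr0b2 did not pass the test, at 8.01, 9.22 and 6.81 against 10.23, 9.76 and 7.58 (-1.18 ± 0.70). Without control rat 3 it did, at -1.98 (adjusted p = 0.0247).

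Cyp7a1 went the other way with Ethionine long. Its level was 12.75, 12.46 and 12.73, above control rats 2 and 3 (7.91 and 7.53) and close to control rat 1 (12.54). The rise was 3.32 ± 0.94 (adjusted p = 0.00352). It was 4.93 without control rat 1, 2.61 without rat 2 and 2.42 without rat 3, and passed the test each time. Clofibrate long (10.07, 10.33 and 10.34) and Dioxane long (9.99, 11.08 and 10.53) did not overlap Ethionine long, and their clock scores were like its own (means 1.73 and 1.29 against 1.92). Ethionine long lay 2.40 ± 0.94 above Clofibrate long (adjusted p = 0.0307), a call that was lost when any 1 of those 6 rats was left out. Against Dioxane long the difference was 2.11 ± 0.94 (adjusted p = 0.0559). With the clock score as a covariate the 3 differences were all called, the one from the control at 4.82 and the one from Dioxane long at 2.71. Groups of like score still differed in single clock genes. Nr1d1 was lower in Ethionine long than in Dioxane long (-1.98 ± 0.36, adjusted p = 3.01e-05) and Clofibrate long (-1.77 ± 0.36, adjusted p = 0.000124). Dbp did not differ detectably (-0.02 and 0.65). The score was taken in treated rats, so as a covariate it can also take up an effect of treatment.

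With AAF long, 3 genes fell, where 16.1% of all genes did. Slco1b2 was not among them by its brighter probe set (-0.34), but its other probe set fell by 0.64 ± 0.18 (adjusted p = 0.00847), and the mean of both was called too (-0.49, adjusted p = 0.0185). Slco1a1 was at 10.64, 10.04 and 10.06 against 10.89, 10.96 and 10.70 in the controls, a difference of -0.60 ± 0.13 (adjusted p = 0.000965). Rat 1 lay just below the lowest control. Baat was at 13.11, 13.05 and 12.74, below every control, and fell by 0.38 ± 0.11 (adjusted p = 0.00711). Cyp27a1 was at 12.17, 11.57 and 11.39 and overlapped the controls, with a difference of -0.37 ± 0.14 (adjusted p = 0.0445) that was lost without any 1 of the control rats and without AAF long rat 2 (-0.30) or rat 3 (-0.21). Without AAF long rat 3 Baat was not called either (-0.26, adjusted p = 0.0818). Slc10a1 was at 13.15, 12.76 and 12.61, all below the controls, and its -0.42 did not pass. Cyp8b1 had the lowest difference of the 9 genes (-0.71) and did not pass either. Without AAF long rat 3 Cyp8b1 was called (-0.97, adjusted p = 0.0343). Without control rat 1, 4 genes passed: Slco1a1 and Baat lower, and Cyp7a1 (3.32, adjusted p = 0.00507) and Nr0b2 (2.23, adjusted p = 0.0221) higher. With all controls Cyp7a1 was 1.83 ± 0.94 above them and Nr0b2 1.47 ± 0.70.

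DEN long, the third genotoxic compound, gave no call among the 9 by limma (0 at an unadjusted p under 0.05), where 16.7% of all genes were called. Its differences ran from -0.23 for Slc10a1 to 1.32 for Nr0b2. The other probe set of Slco1b2, however, was at 10.82, 10.55 and 10.24 against 11.37, 11.38 and 11.07 in the controls, without overlap, and fell by 0.73 ± 0.18 (adjusted p = 0.00497). The mean of both probe sets gave -0.44 (adjusted p = 0.056). Dioxane long and Clofibrate long gave none either (0 unadjusted in each), in comparisons that called 0.164% and 0.136% of all genes.

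At the short duration the only calls among the 9 were of Cyp7a1. It rose with Dioxane short by 3.11 ± 0.94 (adjusted p = 0.046), where 1.82% of all genes rose, and with Ethionine short by 3.60 ± 0.94 (adjusted p = 0.0218), where 2.10% did. The rats were at 13.22, 12.37 and 11.71 with Dioxane short and at 11.73, 13.53 and 13.52 with Ethionine short. Both groups overlapped control rat 1 at 12.54 and lay far above control rats 2 and 3. Clofibrate short was at 11.47, 10.65 and 11.91 (2.02, adjusted p = 0.273). Without control rat 1, all 3 passed, at 4.71, 5.21 and 3.62 for Dioxane, Ethionine and Clofibrate. Without rat 2 or rat 3 none did, the differences being 2.40 and 2.21 for Dioxane and 2.89 and 2.70 for Ethionine. The Ethionine call was also lost without its own rat 2 or rat 3, and the Dioxane call in 27 of 49 alternatives. The clock scores of these groups (-1.62, -2.04 and -1.61) were close to that of control rat 1 and not to those of rats 2 and 3. With the score as a covariate the differences were 1.26 for Dioxane (adjusted p = 0.54), 1.36 for Ethionine (adjusted p = 0.509) and 0.18 for Clofibrate (adjusted p = 0.969).

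Among the other short groups none of the 9 was called by limma. The counts at an unadjusted p under 0.05 were 1 with AAF short, 0 with MeDAB short, 2 with DEN short and 1 with Clofibrate short, and the shares of all genes called were 8.49%, 0.918%, 17.6% and 2.90%. The other probe set of Slco1b2 fell with DEN short, at 10.30 and 10.45 in its 2 rats, by 0.90 ± 0.20 (adjusted p = 0.00213). The mean of both probe sets was called as well (-0.55, adjusted p = 0.0327), while the brighter one gave -0.20. Slc10a1, which fell so far after long treatment, differed by no more than 0.08 from its control in any short group.

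**Figure D3:**
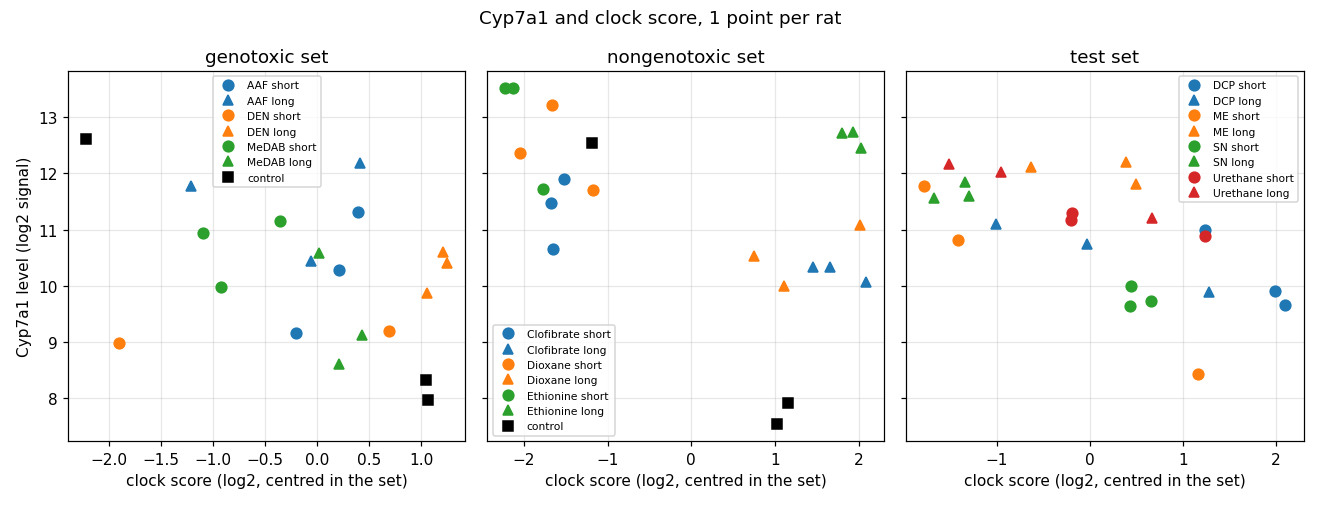
Cyp7a1 level (y axis, log2 signal) against the clock score (x axis, log2, centred in each set), 1 point per rat, with circles for short, triangles for long and black squares for control rats. Rat 1 of both controls lies at the upper left and rats 2 and 3 at the lower right; the 3 Ethionine long rats lie at a score of 1.80 to 2.03 with levels above 12.

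Long was next compared with short for each compound, which uses no control. The 9 genes rose in 4 and fell in 18 of 90 tests. MeDAB had 7 falls (19.4% of all genes fell), in the same genes as against the control, and Ethionine had 7 (21.0%), in its 6 and in Nr0b2. Slc10a1 was lower at the long duration, with a difference of -3.67 ± 0.33 for MeDAB (short rats 13.44, 13.18 and 13.32) and of -3.30 ± 0.33 for Ethionine (short rats 13.53, 13.47 and 13.69). Cyp8b1 fell with both, with differences of -2.13 for MeDAB and -1.22 for Ethionine. Nr0b2 fell from 9.97, 11.10 and 10.44 at the short to 8.01, 9.22 and 6.81 at the long duration of Ethionine, by -2.49 ± 0.70 (adjusted p = 0.00352). With the clock score as a covariate that difference was -0.73 (adjusted p = 0.613), and that of Cyp8b1 with Ethionine was -0.63 (adjusted p = 0.302). AAF had 3 falls (17.5%), in Cyp8b1 (-0.81), Cyp27a1 (-0.42) and Slco1a1 (-0.62). The other probe sets of Slco1b2 (-0.52, adjusted p = 0.0276) and Akr1d1 (0.35, adjusted p = 0.0486) were also called there. The Cyp8b1 call was lost without long rat 1 or 2 or short rat 2 or 3, and the Cyp27a1 call without long or short rat 2 or 3.

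The daily-rhythm gene Cyp7a1 did not differ detectably between durations with Ethionine (-0.28 ± 0.94), since both groups were high. The 2 groups lay at opposite ends of the clock score, and with it as a covariate the difference was 3.46 (adjusted p = 0.0182). In Dioxane the long rats were all below the short ones (-1.90 ± 0.94, adjusted p = 0.273), as in Clofibrate (-1.09 ± 0.94, adjusted p = 0.662).

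In the test set DCP had 1 fall, of Slco1b2 (-0.25 ± 0.07, adjusted p = 0.0076; 14.2% of all genes fell). Its other probe set gave -0.19 (adjusted p = 0.285), and the call was lost with the mean of both (-0.22, adjusted p = 0.0666). ME had 3 rises (8.77% of all genes rose). Cyp7a1 went from 10.82, 11.77 and 8.43 at the short to 12.11, 12.20 and 11.81 at the long duration, a rise of 1.70 ± 0.55 (adjusted p = 0.0395), and short rat 3 lay lowest. Without that rat the rise was 0.74 (adjusted p = 0.186), and it also missed the threshold without short rat 1 or any long rat. Baat rose by 0.37 ± 0.11 and Slc10a1 by 0.18 ± 0.06, both without overlap. The Slc10a1 call was lost without any 1 of the 6 rats, and the Baat call without short rat 1 (0.24) or long rat 2 or 3. SN had 1 rise (1.70%), in Cyp8b1, from 11.09, 10.59 and 10.32 to 11.93, 11.76 and 11.90, by 1.20 ± 0.31 (adjusted p = 0.0337), a call lost without any 1 of these rats except short rat 1. Cyp7a1 in SN went from 9.99, 9.73 and 9.63 to 11.85, 11.57 and 11.60, with no overlap, and its 1.89 ± 0.55 missed the threshold (adjusted p = 0.0525). The clock score fell from positive in all 3 SN short rats to a mean of -1.44 in SN long, and with it as a covariate the Cyp8b1 difference was 0.78 (adjusted p = 0.214).

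The other 4 compounds gave no call between durations by limma: DEN (30.3% of all genes called), Dioxane (5.31%), Clofibrate (3.47%) and Urethane (13.7%). At an unadjusted p under 0.05 they had 1, 2, 1 and 1 of the 9.

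Compounds of 1 set were then compared with each other at the same duration, in 12 pairs with 16 genes higher and 13 lower of 108 tests. At the short duration limma called none in any of the 6 pairs. The other probe set of Slco1b2 was lower in DEN short than in AAF short (-0.77, adjusted p = 0.0105) and than in MeDAB short (-0.91, adjusted p = 0.00248). The mean of both probe sets was called only against MeDAB short (-0.63, adjusted p = 0.0164). For AAF minus MeDAB, DEN minus AAF and DEN minus MeDAB, 0, 2 and 3 of the 9 had an unadjusted p under 0.05, and 1.79%, 12.2% and 14.5% of all genes were called. For Dioxane minus Clofibrate, Ethionine minus Dioxane and Ethionine minus Clofibrate it was 0 of 9 in each, and 0%, 0.854% and 1.03% of all genes.

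At the long duration MeDAB stood below both other genotoxic compounds in the 7 genes that fell against the control. AAF was above MeDAB in 7 (14.9% of all genes were higher), with Nr0b2 at 4.63 ± 0.70 (adjusted p = 4.12e-06) and Slc10a1 at 3.20 ± 0.33 (adjusted p = 7.82e-09). DEN was above MeDAB in 7 (16.6%), with 4.48 for Nr0b2, 3.39 for Slc10a1 and 1.43 for Cyp8b1. With levels under 6.03 raised to it the Nr0b2 differences were 3.87 from AAF and 3.72 from DEN, both called. DEN was above AAF in Slco1a1 alone, by 0.46 ± 0.13 (16.5%), a call lost without AAF rat 2 or 3 or DEN rat 2, and the other probe set of Akr1d1 was lower (-0.39, adjusted p = 0.0375). Of the AAF and MeDAB differences, that of Cyp8b1 (0.90) was lost without AAF rat 3 or MeDAB rat 2 or 3. In the nongenotoxic set Ethionine was below Dioxane in 7 (23.8%), the 6 and Nr0b2, with -3.28 for Slc10a1. The Nr0b2 call (-1.95) was lost without Ethionine rat 3 (-1.35) or Dioxane rat 1. It was below Clofibrate in 6 (23.6%), with -3.26 for Slc10a1 and -2.22 for Cyp27a1 and a borderline -0.71 for Cyp8b1 (adjusted p = 0.0494; lost in 28 of 49 alternatives, among them no filter and quantile normalization), and above it in 1, Cyp7a1 (31.9% of all genes were higher). Dioxane minus Clofibrate had no call by limma (0 of 9 unadjusted), as for 0% of all genes. In this set the 3 uptake transporters passed the test against the control in Ethionine long and in no other group.

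The mean genotoxic effect minus the mean nongenotoxic effect was called for none of the 9 by limma, at either duration. At the short duration 1 of 9 had an unadjusted p under 0.05, Cyp7a1 at -2.53 ± 1.10 (adjusted p = 0.179), and 5.36% of all genes were called. Without rat 1 of the nongenotoxic control it was called, at -4.14 (adjusted p = 0.0116). At the long duration it was 0 of 9, with 11.8% of all genes called, and differences ran from -1.06 for Cyp7a1 to 0.23 for Cyp27a1. Without MeDAB long rat 1, Slc10a1 was called there, at -0.64 (adjusted p = 0.0354). Each class held 1 compound with a large fall of Slc10a1.

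Inside the test set each compound was set against the mean of the other 3 at its duration, with 3 rises and 5 falls in 72 tests. DCP long held 5 of these calls, 4 lower (19.9% of all genes were lower) and 1 higher (17.8%). Cyp8b1 was at 10.51, 11.02 and 10.32 and fell by 1.03 ± 0.26 (adjusted p = 0.00386). Urethane long rat 2, at 10.46, overlapped it, and the other 8 rats lay at 11.51 or above. Slco1b2 was at 11.83, 11.85 and 11.85, below all other rats, and fell, with a difference of -0.37 ± 0.06 (adjusted p = 5.37e-05), but its other probe set gave -0.06 (adjusted p = 0.724). Baat was at 12.84, 12.78 and 13.01, also without overlap, and fell by 0.42 ± 0.09 (adjusted p = 0.00109).

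Cyp7a1 in DCP long was at 9.89, 10.75 and 11.09, below all other long rats, which started at 11.21. The difference was -1.26 ± 0.45 (adjusted p = 0.0332). Without DCP long rat 1 it was -0.92 (adjusted p = 0.197), and it was also not called without rat 2 or without Urethane long rat 3. The clock score of the 3 DCP long rats was 1.28, -0.03 and -1.01. Akr1d1 rose by 0.48 ± 0.14 (adjusted p = 0.0104) by a probe set at 11.58, 12.14 and 11.95, while its other probe set gave 0.09 (adjusted p = 0.629), and the call was lost without rat 2 or 3.

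**Figure D4:**
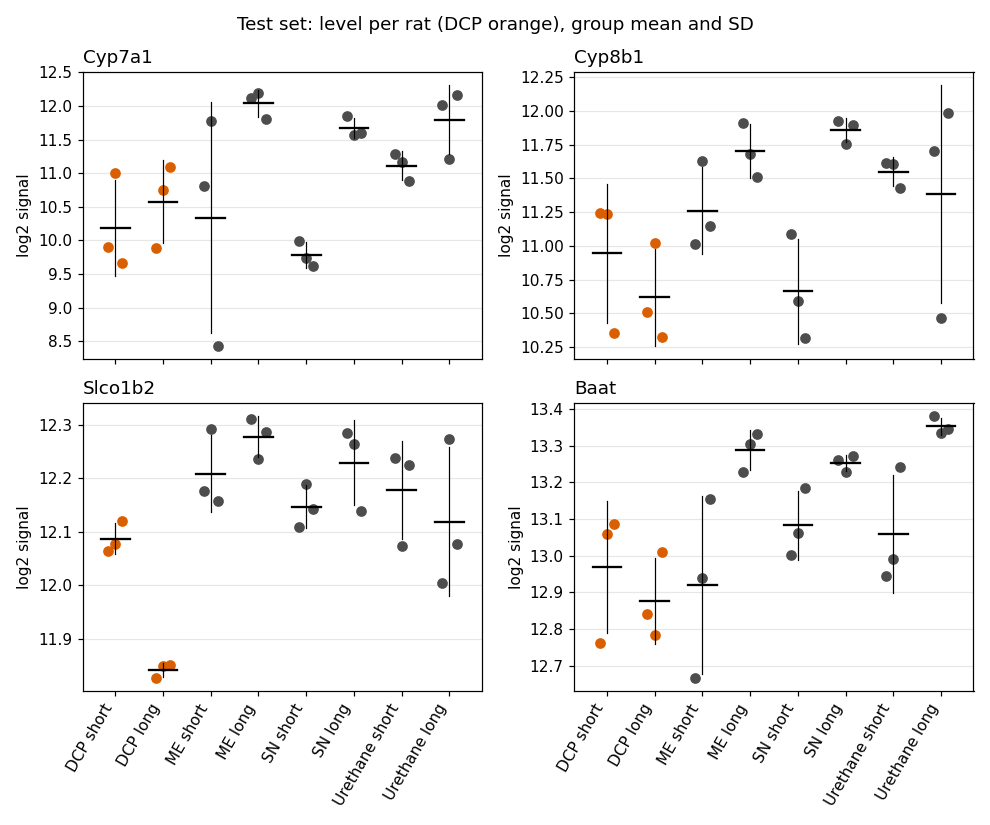
log2 signal of Cyp7a1, Cyp8b1, Slco1b2 and Baat in each rat of the 8 test groups (DCP in orange), with group mean and SD. The DCP long rats lie lowest of all long rats for Cyp7a1, Slco1b2 and Baat, and for Cyp8b1 Urethane long rat 2 lies among them.

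DCP short had 1 rise and 1 fall, where 13.6% of all genes rose and 28.5% fell. Slco1a1, at 10.23, 10.45 and 10.61, fell by 0.26 ± 0.07 (adjusted p = 0.00803), a call lost without rat 1. Akr1d1 rose by 0.48 ± 0.14, its other probe set gave 0.01, and the call was lost without rat 3. DCP short had the highest clock score of this set (mean 1.78), and with it as a covariate neither gene was called, with -0.23 for Slco1a1 (adjusted p = 0.0586) and 0.42 for Akr1d1 (adjusted p = 0.0731). ME long had 1 rise, Slco1b2 by 0.21 ± 0.06 (adjusted p = 0.0445; 1.63% of all genes rose), which was lost in 21 of 32 alternatives. The remaining comparisons had no call by limma: ME short (9.25% of all genes called), SN short (14.3%), Urethane short (7.73%), SN long (5.20%) and Urethane long (13.8%), with 1, 1, 2, 2 and 1 of the 9 at an unadjusted p under 0.05. In SN short the other probe set of Slco1b2 was lower by 0.36 ± 0.11 (adjusted p = 0.0362), and the mean of both gave -0.19 (adjusted p = 0.107). Slc10a1 spanned only 0.18 between the lowest and highest group mean of this set, from 12.91 in ME short to 13.09 in ME long.

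Levels were also ordered within each set. For Slc10a1 the genotoxic order from high to low was MeDAB short (13.31), DEN short (13.29), control (13.26), AAF short (13.25), DEN long (13.04), AAF long (12.84) and MeDAB long (9.64). Neighbours overlapped except AAF short with DEN long and AAF long with MeDAB long. In the nongenotoxic set 6 groups lay between 13.48 and 13.56 and Ethionine long at 10.26. For Cyp7a1 each group overlapped the next in both training sets, and the controls had SDs of 2.59 and 2.79. In the test set Cyp7a1 ran from 9.78 in SN short to 12.04 in ME long, and the only gap between neighbours was from SN long (11.67) to Urethane short (11.12).

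The genes did not all move together over the 22 group means, each centred in its set. Of 45 pairs, 21 had a correlation over 0.5, and the median was 0.22. The pairs include those of Cyp7b1, which stayed below the filter and was not tested. Its correlations ran from -0.07 to 0.13 and lower the median. Cyp27a1 with Slco1a1 stood highest at 0.98, and Slc10a1 with Slco1b2 was at 0.95. Cyp7a1 reached at most 0.29 with any other of the 10, with Nr0b2. Among 10035 genes tested in both fits, those most like Cyp7a1 were Cry2 (0.82), a clock repressor, Phf19 (0.78) and Jade1 (0.78). Those most like Slc10a1 were Rnase4 (0.99), Ust5r (0.97) and Adhfe1 (0.97), but over the 8 test groups alone these were 0.69, 0.22 and 0.05. Over all 10035 genes the 90th percentile of the correlation was 0.29 with Cyp7a1 and 0.61 with Slc10a1. All groups of a training set share a control and a normalization, and MeDAB long and Ethionine long set most of the range.

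Other genes of the pathway were counted by lists. Of 11 tested bile acid enzymes, 10 fell and 0 rose with MeDAB long (median -0.78, against 0.12 over all genes), and 7 fell and 0 rose with Ethionine long (median -0.83, against 0.03). Of all genes tested, 17.7% and 23.0% fell and 35.9% and 30.0% rose in these 2 comparisons. Slc27a5, the bile acid CoA ligase, fell with both, with differences of -4.00 ± 0.15 for Ethionine long (adjusted p = 1.07e-19) and -1.50 ± 0.15 for MeDAB long. Amacr, the racemase of side chain shortening, fell by 2.00 with MeDAB long. The oxysterol hydroxylase Cyp39a1 fell with both (-2.37 for Ethionine long and -1.62 for MeDAB long), as did Hsd3b7 (-2.32 and -0.79). AAF long had 3 lower (16.1% of all genes fell) and 1 higher (16.0% rose), with a median of -0.11. The lower ones were Amacr (-0.61), Slc27a5 (-0.41) and Scp2 (-0.19), and the higher one was Acot8 (0.57). DEN long had none called, where 16.7% of all genes were.

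Of 11 tested transporters and related genes, 3 rose and 6 fell with MeDAB long, 2 rose and 5 fell with Ethionine long and 3 rose and 4 fell with AAF long. Of all genes tested, 35.9%, 30.0% and 16.0% rose and 17.7%, 23.0% and 16.1% fell in these comparisons, so that the rises with MeDAB and Ethionine were no larger a share than over all genes. The basolateral efflux pump Abcc3 rose in all 3, by 2.93 ± 0.43, 2.22 ± 0.43 and 3.53 ± 0.43, and also in Dioxane short (1.72) and Clofibrate short (1.74). The canalicular export pump Abcb11 fell with MeDAB long (-1.37 ± 0.12) and with DEN long (-0.34 ± 0.12), and also with DEN short (-0.44 ± 0.13). In AAF long it lay 0.98 ± 0.12 above MeDAB long. Abcb11 thus lay below the control in AAF long as well. Its differences from the control in AAF long and Ethionine long were not among the 5 largest called of the list and are not given. A smaller called fall there may thus go unnamed. The uptake carriers Slco1a4 (-2.57 and -1.58) and Slco2b1 (-1.46 and -2.41) fell with MeDAB long and Ethionine long, as did the sterol exporter Abcg5 (-2.63 and -1.84). These falls were not all confined to those groups. Slco2b1 also fell with DEN long (-0.68 ± 0.12), and Abcg5 also fell with AAF long (-2.14 ± 0.47). In AAF long Slco2b1 lay 0.77 ± 0.12 above MeDAB long, and thus still below the control. Its difference from the control there was not among the 5 largest called and is not given.

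Of 12 tested regulators, 1 rose and 4 fell with MeDAB long, where 17.7% of all genes fell. With Ethionine long 2 rose and 4 fell (23.0% of all genes fell), and with AAF long 1 rose and 3 fell (16.1%). With DEN long 4 fell, where 6.31% of all genes fell. The rises were again no larger a share than over all genes, and none rose with DEN long (10.4% of all genes did). Nr1h4, which encodes FXR, fell with MeDAB long (-1.31 ± 0.17), DEN long (-0.84 ± 0.17) and AAF long (-0.70 ± 0.17), and also with Dioxane short (-0.62 ± 0.17) and DEN short (-0.57 ± 0.19). In Ethionine long it was not among the 5 largest called of the list, so a smaller called fall there may go unnamed. Fgfr4, the receptor for the hormone FGF15 that represses Cyp7a1, fell in all 4, with differences of -1.14, -0.67, -0.79 and -0.61 for MeDAB, Ethionine, AAF and DEN. With Ethionine long the nuclear receptor Nr1i3 (CAR) fell by 3.63 ± 0.43 and the coactivator Ppargc1a rose by 2.49 ± 0.32. Ppargc1a also rose with AAF short (2.23 ± 0.32) and Dioxane short (1.32 ± 0.32).

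Markers of cell types were read beside these results, since in bulk liver fewer cells of a type and less RNA per cell cannot be told apart. Of 11 tested hepatocyte markers, 6 fell and 2 rose with MeDAB long, where 17.7% of all genes fell and 35.9% rose. With Ethionine long 3 fell and 3 rose, where 23.0% of all genes fell and 30.0% rose. The hepatocyte rises were no larger a share than over all genes, and the falls with Ethionine long were near that share. Albumin differed by -0.08 and 0.01. Of 8 macrophage markers, 6 rose with MeDAB long (35.9% of all genes), 8 with Ethionine long (30.0%) and 5 with DEN long (10.4%), and 5 fell with AAF long (16.1%). The log2 of their summed level was 14.00 in MeDAB long, 14.15 in DEN long and 13.58 in the genotoxic control, and 14.69 in Ethionine long against 13.13 in its control. The part of other cell types in the falls was not tested. Cela1, an exocrine pancreas enzyme and the only 1 of 3 such markers that was tested, fell with MeDAB long (-2.16), DEN long (-2.03) and Ethionine long (-3.49). As a sign of RNA quality, the 3′ minus 5′ signal of Gapdh had group means from 0.34 (MeDAB long) to 0.75 in the genotoxic and from 0.42 to 0.69 (Ethionine long) in the nongenotoxic set.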

How the data were processed

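One array per rat, 65 in all, was hybridised with liver RNA. The authors deposited log2 values for 31099 probe sets, summarised with RMA (version not given), per the series' design text, which says that 1 failed array was left out. The lowest and highest values of the arrays do not overlap between the 3 sets, so each seems to have been normalized apart. The number of arrays limits the precision. Groups come from the titles, per the labels.

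Of the probe sets, 20826 have 1 symbol in the annotation of the platform, 436 several and 9780 none, and 57 controls were left out. Each of 14217 genes is represented by its probe set with the highest mean. A gene was tested if above the table's median (log2 6.03, or 5.65 in the test set) in at least 2 arrays. Models of limma (version 3.58.1, run in R 4.3.3) were fitted with 1 mean per group and plain eBayes, to the training sets (41 arrays, 11007 genes, 27 residual degrees of freedom, prior 4.02) and to the test set (24 arrays, 10213 genes, 16, prior 2.95). Both probe sets of a gene were tested with all probe sets (19023 and 17226). Tables were handled with the package data.table of version 1.17.8, and figures and promoter searches used Python 3.11.15, pandas 2.3.3 and matplotlib 3.10.9.

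All 10 genes are named, with at most 5 called genes per list by size of difference, and the 3 genes most like Cyp7a1 and Slc10a1. The genes and lists were chosen with earlier results of these data known. Alternatives were no or a stricter filter (log2 7.99 and 7.70), averaging of a gene's probe sets, trend and robust eBayes, quantile normalization, only the compared groups, a replicate block, a clock score covariate and each rat left out, and, added later for Nr0b2, levels under the filter level raised to it. On simulated data with 200 genes changed, the fit was tested: for MeDAB long minus control, 92% and 99% of changes of log2 1 and 2 were recovered with 8 false calls of 11007 genes.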

Additional observations from a re-analysis of the deposited data

Results flagged for a closer look

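Among the compounds of the sets with a control, the effects of 3 differed between the durations, by the test of long minus short in limma. With MeDAB the long effect was below the short one, the long minus short difference being -3.67 for Slc10a1, -3.10 for Nr0b2 (-2.34 with levels under the filter level raised to it), -2.13 for Cyp8b1, -1.32 for Slco1b2, -1.30 for Cyp27a1, -1.25 for Slco1a1 and -0.69 for Baat. With Ethionine the difference was -3.30 for Slc10a1, -2.49 for Nr0b2, -2.30 for Slco1a1, -2.24 for Cyp27a1, -1.62 for Slco1b2, -1.57 for Baat and -1.22 for Cyp8b1. Its Nr0b2 and Cyp8b1 calls were lost with the clock score as a covariate. With AAF the difference was -0.81 for Cyp8b1, -0.62 for Slco1a1 and -0.42 for Cyp27a1, and all 3 calls were lost with only the compared groups.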

How the results depend on the processing

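The number of calls was within 1.5 times of its main value in every alternative except those named here. In the test set 8 calls became 5 with the mean of all probe sets, where both Akr1d1 calls and Slco1b2 in ME long were lost. Leaving out each rat gave 17 to 22 calls against the controls, 19 to 24 for long minus short, 26 to 36 between compounds, 5 (without DCP long rat 2) to 10 in the test set, and 0 to 1 for the class difference (1 without MeDAB long rat 1 or without nongenotoxic control rat 1). Where DEN short was left with 1 rat, that rat is assumed to vary like the other groups. Of 78 calls, 73 remained without the filter, 78 with the stricter one, 74 with the mean of probe sets, 76 with trend and robust, 75 with quantile normalization, 63 with only the compared groups and 67 with the clock score. The clock score reversed 2 values of Cyp7a1: Ethionine long minus short (3.46) and DCP short minus the other 3 (0.99, adjusted p = 0.0134). Only the compared groups ended all 6 calls of AAF long against its control and its short group. Quantile normalization of all columns moved the median of all genes by -0.106 in MeDAB long minus short and by 0.111 in AAF minus MeDAB long, and kept their 7 calls each. With a replicate block the counts were 19, 23, 31, 7 and 0, and 77 of 78 calls remained. Same-numbered rats did not deviate together in the median (correlations -0.001, 0.006 and -0.009 in the nongenotoxic, genotoxic and test sets). Of these pairs, 8 of 63, 15 of 57 and 13 of 84 were over 0.1. The numbers were not used as pairs in the main fit, and medians cannot exclude a partial pairing. With 3 rats a group, small differences can go undetected.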
